A study of Mus musculus with 12 samples.

Results

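Tert, Rad9b, Recql5 and Apex1 are 4 mouse genes of telomere upkeep, DNA damage signalling and DNA repair, and they were taken by symbol from a table of 3799 genes measured by RNA sequencing in mouse liver. All 4 were found, each on 1 row, and all 4 passed the filter of a mean of at least 1 FPKM (a count of sequenced fragments divided by gene length and library size) that left 3317 genes for testing. The table's header gives no unit, and FPKM is the reading taken here. The table was a selection made by the authors, who named it for differential expression, so a share of its genes is a share of selected genes and not of the genome.

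Tert encodes the reverse transcriptase subunit of telomerase, which adds repeats to chromosome ends. Rad9b encodes a paralog of Rad9a, a subunit of the ring-shaped 9-1-1 clamp (with Rad1 and Hus1) that is loaded at damaged DNA and helps to switch on the checkpoint kinase ATR. Recql5 encodes a RecQ-family helicase that binds RNA polymerase II and limits recombination, and Apex1 encodes the main endonuclease that cuts DNA at abasic sites during base excision repair. Doxorubicin, the drug given here, traps topoisomerase II on cut DNA, which leaves double-strand breaks, and it also generates reactive oxygen species.

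The study asked how K35 and its analog K27, given after doxorubicin, affected mice in which that drug accelerates aging. Livers came from male C57BL/6J mice aged 8 weeks at the start, for which the labels name no allele. The Saline group received saline in place of doxorubicin and is labelled as vehicle. The DOX group received doxorubicin at 10 mg/kg into the abdomen on days 0 and 7, and the DOX + K35 and DOX + K27 groups received the same doxorubicin plus 50 mg/kg of the compound into the stomach every other day from day 2, where the DOX group had vehicle. All livers were taken on day 20, and each group had 3 libraries. The labels do not say whether a library stands for 1 mouse, so a p-value here measures the spread between these libraries. The table's columns for the DOX group were replicate 1 and libraries B3 and B4, and those for DOX + K35 were replicates 1 and 2 and library C4, because B3, B4 and C4 could be tied to a group but not to a numbered sample.

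The 250 bases before the start site of each gene are shown because Tert, Rad9b and Recql5 shared 1 pattern of levels across these livers and Apex1 had the opposite one. They are from RefSeq (GRCm38.p6), written 5′ to 3′ on the strand of the gene, at chr13:73626661-73626910 (+ strand) for Tert, chr5:122354206-122354455 (− strand) for Rad9b, chr11:115933493-115933742 (− strand) for Recql5 and chr14:50924699-50924948 (+ strand) for Apex1. Capitals mark matches on either strand to the GC box (GGGCGG), the CCAAT box (CCAAT), the E-box (CACGTG), the AP-1 motif (TGACTCA) and the ETS motif (CCGGAAG).
Tert: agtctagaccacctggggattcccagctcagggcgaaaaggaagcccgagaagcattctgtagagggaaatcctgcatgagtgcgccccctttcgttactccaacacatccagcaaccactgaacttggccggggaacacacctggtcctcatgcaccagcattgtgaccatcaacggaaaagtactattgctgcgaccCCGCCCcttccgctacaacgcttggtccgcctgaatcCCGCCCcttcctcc
Rad9b: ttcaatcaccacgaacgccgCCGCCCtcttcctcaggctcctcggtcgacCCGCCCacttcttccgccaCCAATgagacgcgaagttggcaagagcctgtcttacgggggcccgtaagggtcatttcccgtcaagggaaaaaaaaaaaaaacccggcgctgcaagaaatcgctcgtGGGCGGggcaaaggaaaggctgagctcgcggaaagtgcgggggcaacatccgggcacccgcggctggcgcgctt
Recql5: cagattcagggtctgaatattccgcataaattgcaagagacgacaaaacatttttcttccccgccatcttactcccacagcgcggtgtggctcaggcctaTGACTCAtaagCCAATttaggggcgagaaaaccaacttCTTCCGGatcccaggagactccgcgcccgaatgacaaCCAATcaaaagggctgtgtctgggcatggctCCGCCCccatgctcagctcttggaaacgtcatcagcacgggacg
Apex1: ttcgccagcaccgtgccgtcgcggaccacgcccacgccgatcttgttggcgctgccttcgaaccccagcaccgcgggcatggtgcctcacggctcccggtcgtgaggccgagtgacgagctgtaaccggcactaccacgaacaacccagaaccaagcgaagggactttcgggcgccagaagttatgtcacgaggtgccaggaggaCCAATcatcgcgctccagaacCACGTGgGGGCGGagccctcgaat
All 4 windows held a GC box, which 32.7% of 32817 RefSeq mouse windows of the same length also held. Rad9b had 3 GC boxes, Tert had 2, and Recql5 and Apex1 had 1 each. A CCAAT box, held by 33.8% of all windows, was present in Rad9b (1), Recql5 (2) and Apex1 (1) and had no match in Tert. The E-box, held by 6.02% of all windows, matched only in Apex1, at -24 from the start site. The AP-1 motif (4.46% of all windows) and the ETS motif (6.9%) matched only in Recql5. No window matched the NRF1 motif (3.73% of all windows), the CRE (TGACGTCA, 1.55%), the TATA box (TATAAA, 12.4%) or the p53 consensus site (0.064%). With a share that low, the lack of a p53 match says little about these genes. GC content was 57.2% for Tert, 61.6% for Rad9b, 53.2% for Recql5 and 64.8% for Apex1, against a median of 52.4% over all windows. A match describes the letters of the window and is not evidence of binding.

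In GENCODE M21 on GRCm38, Tert (ENSMUSG00000021611) lies on chromosome 13 from 73626911 to 73649843 on the + strand, and Apex1 (ENSMUSG00000035960) lies on chromosome 14 from 50924968 to 50927139 on the + strand. Rad9b (ENSMUSG00000038569) lies on chromosome 5 from 122323223 to 122354233, and Recql5 (ENSMUSG00000020752) on chromosome 11 from 115892595 to 115933477, both on the − strand. The RefSeq start sites used for the windows above differ by some bases from these starts for Rad9b, Recql5 and Apex1, not for Tert. The exons of 3 of the 4 genes overlap exons of a gene on the other strand. Apex1 shares 877 bases, 61.7% of its exonic bases, with Pip4p1. Rad9b shares 1002 bases (23.2%) with Pptc7, and Recql5 shares 196 bases (2.81%) with Sap30bp and 9 bases with Myo15b. Tert shares none. The library kit does not mark strand, so reads from the shared stretches cannot be told apart, and the Apex1 level in particular may hold reads of Pip4p1, a gene not analysed here.

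The libraries differed in the share of summed FPKM taken by the 13 mitochondrially encoded genes. It was 48.2% to 61.9% in Saline, 62.2% to 83.3% in DOX, 37.9% to 48.7% in DOX + K35 and 50.01% to 68.0% in DOX + K27. The liver label was checked with 10 hepatocyte markers, of which 5 (Apoa1, Apoc3, Cps1, Tat and Cyp2e1) were in the table, summing to 8109 to 14998 FPKM per library. The 6 Kupffer cell and macrophage markers in the table, of 11 listed, summed to 73.4 to 202 FPKM in Saline, 18.5 to 52.97 in DOX, 53.1 to 84.3 in DOX + K35 and 53.9 to 97.0 in DOX + K27. The 4 globin genes, of 7 erythroid markers listed, summed to 330 to 506 FPKM in Saline, 821 to 1135 in DOX, 62.2 to 596 in DOX + K35 and 452 to 1072 in DOX + K27. In the DOX group both of these sums lay outside the Saline range, as did the levels of Tert, Recql5 and Apex1. The part of these shifts in the results below was not tested, and in bulk tissue fewer cells of a type and less RNA per cell cannot be told apart.

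Per unit of length, Rad9b was the lowest of the 4 genes, with group means of 0.814 to 1.63 FPKM, above 12.4% to 24.0% of the genes in the table. Tert means ran from 1.91 to 4.64 FPKM and Recql5 means from 3.01 to 4.40 FPKM. Apex1 had the highest mean in 3 of the 4 groups and the widest span, from 2.07 FPKM in DOX to 8.34 FPKM in DOX + K35. In the DOX group the order was different, with Tert and Recql5 above Apex1. In the order of group means, Tert, Rad9b and Recql5 all ran DOX, DOX + K27, Saline, DOX + K35 from high to low, and Apex1 ran in the reverse order. Neighbours in that order overlapped in range for every gene, except DOX and DOX + K27 for Recql5.

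**Figure D1:**
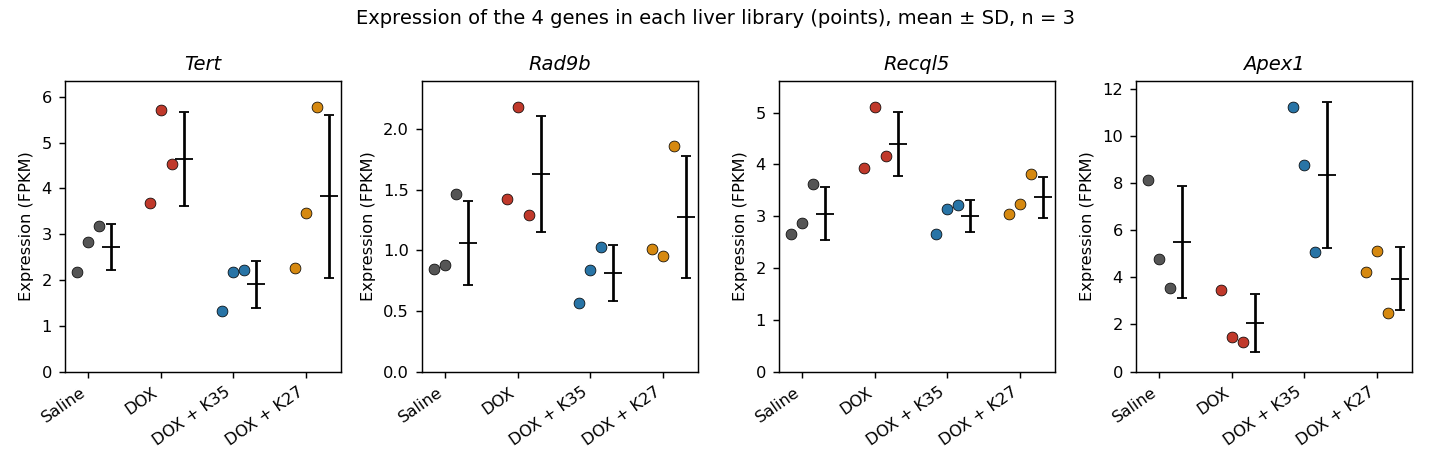
Each panel plots 1 gene, with expression in FPKM on the vertical axis and the 4 groups on the horizontal axis. Points are the 3 libraries of a group and the bar beside them is the mean ± SD. Tert, Rad9b and Recql5 have their highest mean in DOX and their lowest in DOX + K35, and Apex1 has its lowest mean in DOX (2.07 FPKM) and its highest in DOX + K35 (8.34 FPKM).

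The comparison of DOX with Saline asks how doxorubicin alone changed the genes. Apex1 measured 8.13, 4.76 and 3.55 FPKM in Saline replicates 1 to 3, and 3.48, 1.47 and 1.27 FPKM in DOX replicate 1 and libraries B3 and B4. The groups did not overlap, but the lowest Saline library and the highest DOX library were almost level. The mean was 5.48 ± 2.38 FPKM (SD, n = 3) in Saline and 2.07 ± 1.22 FPKM in DOX, a log2 difference of -1.08 (SE 0.35, 95% interval -1.83 to -0.34), with an adjusted p of 0.0612 by limma. This and all later differences are on the log2(FPKM + 1) scale, which understates the change of low genes.

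Tert measured 2.17, 2.83 and 3.17 FPKM in Saline and 3.67, 5.71 and 4.52 FPKM in DOX. Every DOX library lay above every Saline library, and the means were 2.72 ± 0.51 and 4.64 ± 1.03 FPKM (SD, n = 3). The log2 difference was 0.59 (SE 0.26, 95% interval 0.034 to 1.15), with an adjusted p of 0.0902 by limma. Recql5 measured 2.66, 2.87 and 3.62 FPKM in Saline and 3.94, 5.10 and 4.16 FPKM in DOX, again without overlap, with a log2 difference of 0.41 (SE 0.19, limma adjusted p = 0.0953). Rad9b, the damage-clamp gene, measured 0.849, 0.876 and 1.46 FPKM in Saline and 1.42, 2.18 and 1.29 FPKM in DOX, ranges that overlapped, with a log2 difference of 0.35 (SE 0.20, limma adjusted p = 0.182), which was 0.20 without library B3.

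None of the 4 genes passed an adjusted p of 0.05 in limma for DOX against Saline, where 6 of 3317 genes did (0.181%). At an unadjusted p under 0.05, 3 of the 4 passed, against 47.4% of all genes. The groups did not overlap for 3 of the 4, against 35.3% of all genes. The median log2 difference over all genes tested was -0.34, so relative to that median Tert stood at 0.93, Recql5 at 0.75, Rad9b at 0.69 and Apex1 at -0.75. The call depends on the scaling of the libraries, for these genes as for the others. With an equal sum without the 20 highest genes, 3 of the 4 (Tert, Rad9b and Recql5) and 33.0% of all genes passed, and with median-ratio scaling 2 of the 4 (Recql5 and Apex1) and 31.9% of all genes passed. All 4 directions were kept in the 4 scalings tried. An exact permutation test of 3 libraries against 3 cannot give a p below 0.1.

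The comparison of DOX + K35 with DOX asks what K35 changed in doxorubicin-treated mice. Apex1 rose and Tert and Rad9b fell. Apex1 measured 11.2, 8.74 and 5.08 FPKM in DOX + K35 (replicates 1 and 2 and library C4) against at most 3.48 FPKM in DOX. The groups did not overlap, and the mean was 8.34 ± 3.08 FPKM (SD, n = 3), 4.02 times that of DOX, with a log2 difference of 1.61 (SE 0.35, 95% interval 0.87 to 2.36, limma adjusted p = 0.00536).

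Tert measured 1.32, 2.18 and 2.22 FPKM in DOX + K35, all below the lowest DOX library at 3.67 FPKM. Its mean of 1.91 ± 0.51 FPKM (SD, n = 3) was 2.43-fold lower than in DOX, a log2 difference of -0.96 (SE 0.26, 95% interval -1.51 to -0.40, limma adjusted p = 0.00836). Rad9b measured 0.569, 0.842 and 1.03 FPKM in DOX + K35, all below the lowest DOX library at 1.29 FPKM. Its mean was 0.814 ± 0.231 FPKM (SD, n = 3) against 1.63 ± 0.479 FPKM in DOX, with a log2 difference of -0.53 (SE 0.20, limma adjusted p = 0.0377). Rad9b levels were near the filter of 1 FPKM in both groups.

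Recql5 measured 2.66, 3.13 and 3.22 FPKM in DOX + K35, below the lowest DOX library at 3.94 FPKM, but it did not pass the threshold. Its log2 difference was -0.43 (SE 0.19, 95% interval -0.83 to -0.028, limma adjusted p = 0.0641). With median-ratio scaling Recql5 did pass, at -0.71 (limma adjusted p = 0.00902), as did 78.1% of all genes.

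In all, 3 of the 4 genes passed in this comparison, against 56.8% of the genes tested, 4 of 4 did at an unadjusted p under 0.05, against 61.4%, and the groups did not overlap for 4 of 4, against 59.7% of all genes. In the upward direction, where Apex1 lies, 46.0% of the genes tested passed, and in the downward direction 10.7% did. The log2 difference was lower for 3.86% of the genes than for Tert, and for 93.5% than for Apex1. The median over all genes was 0.46, and relative to it Tert stood at -1.41, Rad9b at -0.99, Recql5 at -0.89 and Apex1 at 1.16. These 2 comparisons share the DOX libraries, so the opposite signs against Saline and against K35 are not independent of each other.

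Rad9b no longer passed without library B3 of DOX (limma adjusted p = 0.170), without DOX + K35 replicate 1 (0.144) or without DOX + K35 replicate 2 (0.0729). Tert and Apex1 passed with any single library left out. With both DOX libraries of the highest mitochondrially encoded share (B3 and B4) left out, an alternative chosen after seeing the data, none of the 4 passed. The log2 differences were then 1.00 for Apex1, -0.70 for Tert, -0.425 for Rad9b and -0.30 for Recql5, against DOX replicate 1 alone, which was assumed to vary like the other groups, and no gene of the 3317 passed (22.7% did at an unadjusted p under 0.05).

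**Figure D2:**
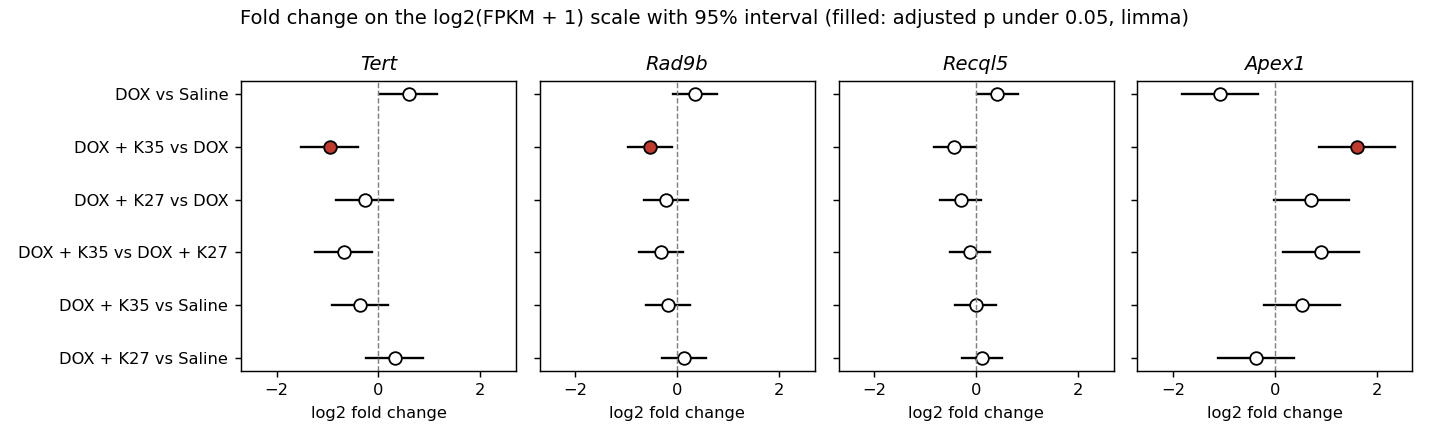
Each panel plots 1 gene, with the log2 fold change on the log2(FPKM + 1) scale on the horizontal axis and the 6 comparisons on the vertical axis. Points are limma estimates, lines are 95% intervals, and filled points passed an adjusted p of 0.05. Filled points are Tert (-0.96), Rad9b (-0.53) and Apex1 (1.61) in DOX + K35 against DOX.

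The comparison of DOX + K27 with DOX asks the same of the analog K27. Tert measured 2.27, 3.45 and 5.77 FPKM in DOX + K27, spanning the whole DOX range, and its log2 difference from DOX was -0.27 (SE 0.26, 95% interval -0.83 to 0.29, limma adjusted p = 0.509). Apex1 measured 4.21, 5.12 and 2.49 FPKM, of which replicate 3 lay inside the DOX range, with a log2 difference of 0.71 (SE 0.35, 95% interval -0.028 to 1.46, limma adjusted p = 0.179). Recql5 measured 3.05, 3.24 and 3.81 FPKM, all below the DOX range, with a log2 difference of -0.30 (SE 0.19, limma adjusted p = 0.265).

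Rad9b measured 1.01, 0.955 and 1.86 FPKM in DOX + K27, an overlap with DOX, with a log2 difference of -0.22 (SE 0.20, limma adjusted p = 0.498). None of the 4 genes passed in limma, against 0.0603% of genes tested, and none did at an unadjusted p under 0.05, against 29.3%. Recql5 was the 1 gene of the 4 whose groups did not overlap, as was so for 18.6% of all genes. DOX + K27 replicate 3 had the highest Tert, Rad9b and Recql5 and the lowest Apex1 of its group. Without DOX replicate 1, Apex1 passed at 1.02 (limma adjusted p = 0.0411), in a fit where 33.1% of all genes passed, nearly all of them higher. The Tert difference was -0.022 without DOX + K27 replicate 1 and -0.55 without replicate 3, and the Rad9b difference ran from -0.072 without library B3 to -0.39 without DOX + K27 replicate 3, none past the threshold.

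K35 and K27 were given at the same dose on the same schedule, and this 1 pair of compounds was compared directly. Tert had a log2 difference of -0.68 for K35 against K27 (SE 0.26, 95% interval -1.24 to -0.12, -0.41 without DOX + K27 replicate 3), with no overlap between the groups, but the limma adjusted p over all genes was 0.132. Apex1 differed by 0.90 (SE 0.35, 95% interval 0.16 to 1.64, limma adjusted p = 0.134), with library C4 of DOX + K35 inside the DOX + K27 range. Rad9b differed by -0.31 (95% interval -0.75 to 0.12, limma adjusted p = 0.263) and Recql5 by -0.12 (95% interval -0.52 to 0.28, limma adjusted p = 0.598).

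None of the 4 therefore passed between the compounds in limma, where 2.11% of genes did. At an unadjusted p under 0.05, 2 of the 4 (Tert and Apex1) passed, against 28.4% of all genes. The groups did not overlap for 1 of the 4 (Tert), against 49.5% of all genes. Thus the call for K35 against DOX and the lack of one for K27 against DOX are not shown to differ for any of the 4 genes. The intervals do not show that the compounds act alike. With replicate number as a block, which keeps replicates 1 and 2 of each compound only, Tert (-0.49, limma adjusted p = 0.0311) and Apex1 (0.95, limma adjusted p = 0.0194) did pass, in a fit where 50.9% of all genes passed.

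Against Saline, neither compound group differed past the threshold for any of the 4 genes. In DOX + K35 the log2 differences from Saline were 0.53 for Apex1 (95% interval -0.21 to 1.27), -0.36 for Tert (-0.92 to 0.20), -0.18 for Rad9b (-0.62 to 0.25) and -0.012 for Recql5 (-0.41 to 0.39), with limma adjusted p from 0.435 to 0.98. In DOX + K27 they were -0.37 for Apex1 (95% interval -1.11 to 0.37), 0.32 for Tert (-0.24 to 0.88), 0.13 for Rad9b (-0.30 to 0.57) and 0.11 for Recql5 (-0.29 to 0.51), with a limma adjusted p of 0.943 for each. At an unadjusted p under 0.05 none of the 4 passed in either comparison, against 16.6% and 5.94% of all genes. Both compound groups overlapped with Saline for all 4 genes, where 32.3% of all genes did not overlap for DOX + K35 and 13.9% did not for DOX + K27. The intervals still allow a log2 difference of 1 from Saline for Apex1 in both compound groups.

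The levels were set against the mitochondrially encoded share of the library. In 4 of 4 groups the library with the highest share had the lowest Apex1 level of its group. In 3 of 4 groups, that library also had the highest Tert, Rad9b and Recql5 levels. The exception was DOX, where library B4 had the highest share and library B3 had the highest level of those 3 genes, and B4 had the lowest Rad9b level of its group. The libraries closest in share across groups were set side by side. Saline replicate 3 (61.9%) and DOX replicate 1 (62.2%) measured 3.55 and 3.48 FPKM for Apex1, 3.17 and 3.67 FPKM for Tert, 1.46 and 1.42 FPKM for Rad9b, and 3.62 and 3.94 FPKM for Recql5. Library C4 of DOX + K35 (48.7%) and DOX + K27 replicate 1 (50.01%) measured 2.22 and 2.27 FPKM for Tert and 5.08 and 4.21 FPKM for Apex1. For the same pair Rad9b measured 1.03 and 1.01 FPKM and Recql5 3.22 and 3.05 FPKM. DOX + K27 replicate 3 (68.0%) and DOX replicate 1 (62.2%) measured 5.77 and 3.67 FPKM for Tert, 1.86 and 1.42 FPKM for Rad9b, 3.81 and 3.94 FPKM for Recql5 and 2.49 and 3.48 FPKM for Apex1. For K35 against DOX the closest libraries were farther apart in share, C4 (48.7%) and DOX replicate 1 (62.2%), with 2.22 and 3.67 FPKM for Tert, 1.03 and 1.42 FPKM for Rad9b, 3.22 and 3.94 FPKM for Recql5 and 5.08 and 3.48 FPKM for Apex1.

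With that share as a covariate of the fit, also chosen after seeing the data, none of the 4 genes passed in any comparison, at an adjusted p of 0.05 in limma or at an unadjusted p of 0.05. The K35 against DOX differences became 0.020 for Apex1 (SE 0.37), -0.036 for Tert (SE 0.36), 0.052 for Rad9b (SE 0.33) and -0.047 for Recql5 (SE 0.25). Of all 3317 genes, none passed for K35 against DOX in that fit, and 6.90% had an unadjusted p under 0.05. The shares of the DOX + K35 libraries (at most 48.7%) and of the DOX libraries (at least 62.2%) did not overlap, so this fit extends a slope seen within groups beyond their ranges. The treatment and the mitochondrially encoded share therefore cannot be told apart for these genes. With the libraries rescaled to an equal sum without the mitochondrially encoded genes, all 4 genes and 70.0% of all genes passed for K35 against DOX, with Tert at -1.20 and Apex1 at 1.39.

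**Figure D3:**
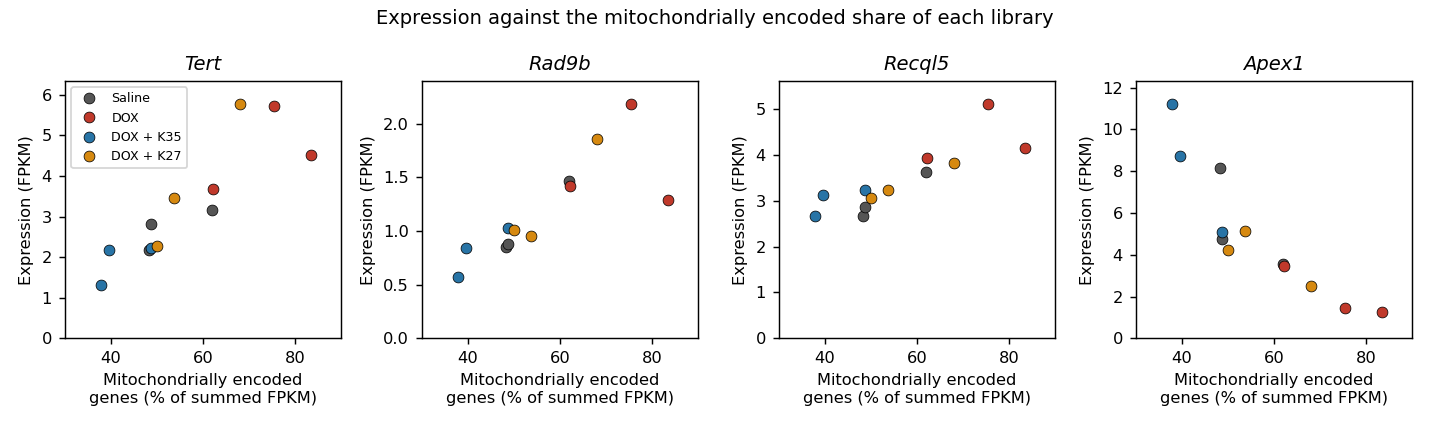
Each panel plots 1 gene, with the share of summed FPKM taken by mitochondrially encoded genes (%) on the horizontal axis and expression (FPKM) on the vertical axis. Each point is 1 library, coloured by group. Apex1 is lowest of each group in the library with the highest share, and the DOX + K35 libraries (37.9% to 48.7%) and the DOX libraries (62.2% to 83.3%) do not overlap in share.

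Over the 12 libraries, which include the group differences described above, the log2 levels of Tert, Rad9b and Recql5 ran together (Pearson r of 0.906 for Tert with Rad9b, 0.864 for Tert with Recql5 and 0.910 for Rad9b with Recql5). Apex1 ran against all 3 (r of -0.892 with Tert, -0.853 with Rad9b and -0.881 with Recql5). The genes most like each were found among 3128 named genes. For Tert they were Dennd6b (0.941), Acta2 (0.927), the smooth muscle actin that also marks activated stellate cells, and Smpd4 (0.919). For Rad9b they were Letm2 (0.948), Pan3 (0.937) and Snx22 (0.935). For Recql5 they were Fdxr (0.922), the mitochondrial ferredoxin reductase, Tmem81 (0.910) and Rad9b itself (0.910). For Apex1 they were Sh3bgrl2 (0.980), Btbd9 (0.980) and Thoc3 (0.974). The pattern of Apex1 was a common one, with 523 of the 3128 genes at r above 0.9, against 7 for Tert, 20 for Rad9b and 4 for Recql5. The correlations are descriptions over libraries that share groups and mitochondrially encoded share. The other stellate and endothelial markers in the table did not move as Acta2 did. For K35 against DOX, Acta2 fell (-0.80, limma adjusted p = 0.0259). Col1a1 (-0.066), Col1a2 (-0.028) and Col3a1 (-0.30) did not pass, and Pecam1 rose (0.79, limma adjusted p = 0.0222).

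The closest partners of the 4 genes that were in the table were Dkc1 and Gar1 for Tert, Apex2 for Apex1 and Recql4 for Recql5, and none of the listed Rad9b partners was analysed here. Dkc1 (dyskerin) and Gar1 are proteins of the ribonucleoprotein that holds telomerase RNA, and they also act in ribosomal RNA modification. Dkc1 measured 1.23, 1.12 and 0.937 FPKM in DOX and 4.16, 3.92 and 2.82 FPKM in DOX + K35, without overlap. It rose by a log2 difference of 1.13 (SE 0.21, limma adjusted p = 0.00497), and Gar1 rose by 0.81 (SE 0.19, limma adjusted p = 0.00581), whereas Tert fell. So the catalytic gene and these partners moved in opposite directions with K35, where 46.0% of all genes rose past the threshold and 10.7% fell. Against Saline, DOX gave -0.62 for Dkc1 (limma adjusted p = 0.0612), -0.090 for Gar1 (limma adjusted p = 0.719) and 0.59 for Tert, none past the threshold.

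Apex2, a related abasic-site endonuclease, measured 1.84, 1.59 and 1.26 FPKM in DOX and 1.55, 1.28 and 1.85 FPKM in DOX + K35, with a log2 difference of -0.0034 (limma adjusted p = 0.988), where Apex1 rose. Recql4, the other RecQ helicase gene in the table, stayed under the filter, at 0.274 to 1.04 FPKM.

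Of 184 genes on lists of DNA repair and telomere genes, 43 were in the table and 37 were tested, the 4 included. For DOX against Saline none passed in limma, and at an unadjusted p under 0.05 there were 5 with a higher and 9 with a lower level, where 7.27% of all genes were higher and 40.1% lower. The median log2 difference of the 37 was 0.145, against -0.34 over all genes tested. Among the lowest unadjusted p of each list were Polk and Rev1, both of translesion synthesis, at 0.73 and 0.80, and Rpa1 (single-strand DNA binding), Rad51b (recombination) and Xrcc6 (the Ku70 end-joining protein), at -1.02, -1.22 and -1.27, with a limma adjusted p of 0.0612 to 0.0762.

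For DOX + K35 against DOX, 10 of the 37 rose and 5 fell, against 46.0% and 10.7% of all genes tested. The median of the 37 was -0.21, where that of all genes was 0.46. The 5 that fell were Tert, Rad9b, Polm (an end-joining polymerase, -0.64), Ercc5 (the XPG endonuclease, -0.53) and Ercc6 (the CSB protein of transcription-coupled repair, -0.58), with limma adjusted p of 0.00836 to 0.0462. Ercc5 and Ercc6 are named here after their values were seen. The 10 that rose included Apex1, Dkc1, Gar1, Rpa1 (1.56), Xrcc6 (1.51) and Rrm2 (a ribonucleotide reductase subunit, 1.14), with limma adjusted p of 0.00496 to 0.0213. The Rrm2 value rested on library C4, without which it was 0.51 (limma adjusted p = 0.0536), and the call was also lost without B3 or B4. Of the 15, 6 lost the call when 1 library or another was left out, namely Rad9b, Polm, Ercc5, Ercc6, Rrm2 and Mnat1, and without DOX + K35 replicate 2 Ercc6 was at -0.37.

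By list, nucleotide excision repair had 5 genes that rose and 2 that fell of 11 tested, and telomerase and telomere maintenance had 2 that rose and 1 that fell of 6. Base excision repair had 1 that rose (Apex1) of 3, end joining had 1 that rose and 1 that fell of 5, and the translesion and nucleotide list had 1 that rose (Rrm2) of 4. Rad9b was the only gene tested of the clamp and checkpoint list. Of the 4 RecQ helicases and partners tested none passed, with all 4 log2 differences below 0, the same as 24 of the 37 genes. None passed of the single mismatch repair gene or the 2 genes of homologous recombination. The list genes that fell with K35 were at low levels in DOX, between the lowest Rad9b library (1.29 FPKM) and the highest Ercc5 library (7.36 FPKM). Low levels were not particular to them. Among the genes that rose, Dkc1 ran from 0.937 to 1.23 FPKM in DOX and Rpa1 from 0.491 to 1.54 FPKM, while others were higher.

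For DOX + K27 against DOX none of the 37 passed in limma, and 5 had a higher level at an unadjusted p under 0.05, against 28.0% of all genes, among them Dkc1 (0.75, limma adjusted p = 0.155) and Rpa1 (0.76, limma adjusted p = 0.155). Between the compounds none passed, with 4 higher and 4 lower for K35 at an unadjusted p under 0.05, against 14.7% and 13.6% of all genes. The lowest p among them belonged to Dclre1c, the Artemis nuclease (-0.65, limma adjusted p = 0.101), and Trp53bp1, a double-strand break adaptor (-0.62, limma adjusted p = 0.110). Of the p53 target genes, 11 were tested. None passed for DOX against Saline in limma. At an unadjusted p under 0.05, 6 were higher and 3 lower, against 7.27% and 40.1% of all genes. Their median was 0.60, against -0.34 over all genes. For DOX + K35 against DOX, Ei24 (1.29) and Cdkn1a (1.097) rose and Gdf15 fell (-0.83, limma adjusted p = 0.0489). Of all genes, 46.0% rose and 10.7% fell past the threshold in that comparison. Without library C4 Cdkn1a was at 0.57 (limma adjusted p = 0.0938), and it also lost the call without B4. Cdkn1a encodes p21. The paper reports the other direction for p21, with RNA (by qPCR) and protein lowered by K35 or K27 in liver and lung after doxorubicin. The cause of this difference was not tested. Gdf15 lost its call with any 1 of 6 libraries left out. With both DOX libraries of high mitochondrially encoded share left out, or with the share as a covariate, none of the 37 repair and telomere genes passed for K35 against DOX.

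**Figure D4:**
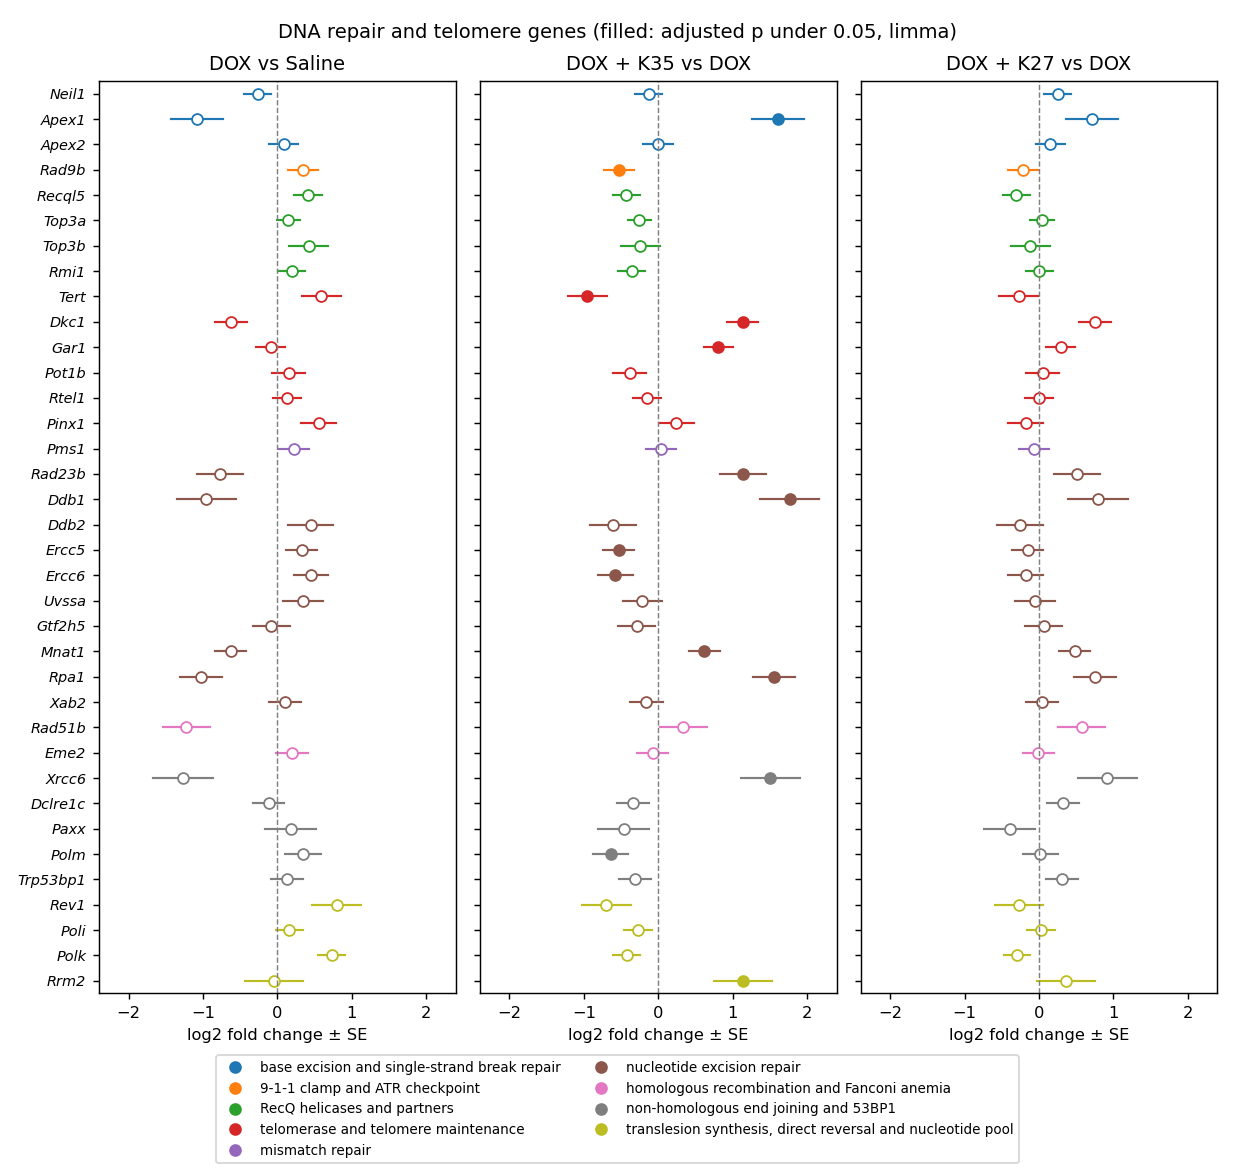
Of the 37 tested DNA repair and telomere genes, 36 are listed on the vertical axis and coloured by list, with the log2 fold change ± SE on the log2(FPKM + 1) scale on the horizontal axis for 3 comparisons. Filled points passed an adjusted p of 0.05 in limma: none of those shown for DOX against Saline, 9 higher and 5 lower for DOX + K35 against DOX, and none for DOX + K27 against DOX.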

How the data were processed

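Liver RNA of 12 mouse samples, 3 in each of 4 groups, was poly(T)-selected and sequenced on the Illumina platform with a kit that does not mark strand. The submitters' processing notes name HISAT2, DESeq2, edgeR and the build GRCm38, without versions or roles. The authors deposited 1 table of 3799 genes, 280 of them new loci, with 1 value per library. Its header names no unit, and the values were taken as FPKM deposited by the authors, normalized for length and library size. The rule by which the authors selected the genes is not given in the sources used here. In each library 2.80% to 6.50% of low values came within 0.02 of a whole multiple of the smallest one, so reads could not be recovered, depth is unknown and no count model was run.

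Values were tested as log2(FPKM + 1) with limma 3.58.1 in R 4.3.3, with all 4 groups in 1 fit, an intensity trend and Benjamini-Hochberg adjustment over the 3317 genes whose mean reached 1 FPKM, at a threshold of 0.05, in 6 comparisons. With simulated data for DOX against Saline with 200 changed genes among 3317, the test recovered 50.4% of changes of 1 and 91.7% of changes of 2 on the log2 scale, with 4.31% false calls. Each gene was simulated on its own, without shifts that the genes of a library share. These rates therefore need not hold for these livers. Samples were grouped by their labels, and 3 libraries whose column names match no numbered sample were used by group only. Replicate numbers were shared in full by Saline and DOX + K27 only. The deviations of same-numbered libraries from their group means correlated at 0.258, 0.176 and 0.474, all above the limit of 0.1 used for pairing, although Saline 1 with DOX + K27 2 (0.380) and Saline 2 with DOX + K27 1 (0.302) correlated more, and the labels name no shared animal or day. No 2 libraries of a group held identical values (r from 0.937 to 0.992).

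Gene positions and exon overlaps came from GENCODE M21, in which all 3519 Ensembl IDs of the table were found, and the upstream windows came from RefSeq, which held all 4 genes. The genes named were the 4 members in every comparison, listed partners, up to 2 genes of the lowest p per repair list, all passing genes of lists with 5 or fewer, and the 3 genes most like each member. Of the list genes, 1 is counted but not reported by name here. The members and gene lists were chosen with earlier results of these data known. Alternatives were other scalings, pseudocount, filter, threshold, groups fitted, replicate block and each library left out. The 2 fits on the mitochondrially encoded share were added after seeing the data.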

Additional observations from a re-analysis of the deposited data

Results flagged for a closer look

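For Gdf15, a p53 target and stress cytokine gene on the lists used here, the effects of K35 and K27 on top of doxorubicin differed in a direct test. Its level was 2.43 ± 1.13 FPKM in DOX + K35 and 8.09 ± 2.44 FPKM in DOX + K27 (SD, n = 3), without overlap, a log2 difference of -1.43 (SE 0.34, limma adjusted p = 0.0433, with Benjamini-Hochberg adjustment). The call was lost with any 1 of 7 libraries left out (-1.67 to -1.17, limma adjusted p of 0.0600 to 0.174). Against DOX (4.97 ± 1.33 FPKM), the log2 difference was -0.83 with K35 and 0.60 with K27. The mitochondrially encoded shares of DOX + K35 (at most 48.7%) and DOX + K27 (at least 50.01%) did not overlap. Compound and share therefore cannot be told apart for Gdf15. In the libraries closest in share, Gdf15 measured 1.31 FPKM in C4 (48.7%), the lowest of its group, and 6.88 FPKM in DOX + K27 replicate 1 (50.01%). DOX replicate 1 and libraries B3 and B4 (62.2% to 83.3%) measured 6.26, 5.04 and 3.61 FPKM. The part of the share in this difference was not tested. None of Tert, Rad9b, Recql5 and Apex1, and none of the DNA repair and telomere list genes, met this test. With 3 libraries a group, no group was tested for an outlying library.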

How the results depend on the processing

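Of the 4 genes, none passed for DOX against Saline. The count became 2 with median-ratio scaling, 1 with quantile normalization and 3 with an equal sum without the 20 highest genes (31.9%, 19.6% and 33.0% of all genes). With each library left out it was 0 to 1. Apex1 passed without Saline replicate 3 and without DOX replicate 1, where 35.9% and 44.4% of all genes passed, most of them lower. For K35 against DOX the count of 3 was 2 to 4 with other scalings, filters and thresholds and 2 to 3 with each library left out. It became 0 with the mitochondrially encoded share as a covariate and 0 without the 2 DOX libraries of highest share, both added after seeing the data. Rad9b was lost at an adjusted p of 0.01. For K27 against DOX the count of 0 was 0 to 1 with each library left out. Apex1 passed without DOX replicate 1, where 33.1% of all genes passed. For K35 against K27 the replicate block raised it from 0 to 2, with 50.9% of all genes called in that fit. The block could be fitted only for pairs of groups sharing 2 or more numbers, and for K27 against Saline it left the count at 0 and changed no other call. For both compounds against Saline the count was 0 in every alternative. The cause of these changes was not tested.

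With the share as a covariate, directions turned for Tert (-0.0088) and Rad9b (-0.032) in DOX against Saline, Rad9b (0.052) in K35 against DOX, Tert (0.20), Rad9b (0.085) and Apex1 (-0.11) in K27 against DOX, Recql5 (0.059) in K35 against K27, and Rad9b (0.020), Recql5 (0.12) and Apex1 (-0.020) in K35 against Saline. For K35 against Saline, Recql5 also turned with the replicate block (0.047), without Saline replicate 3 (0.087) and without DOX + K35 replicate 1 (0.051; range -0.081 to 0.087 with each library left out), and for K27 against Saline Rad9b turned with quantile normalization (-0.031) and without DOX + K27 replicate 3 (-0.044; range -0.044 to 0.27). None of these reversed values passed a threshold.

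Counts over all genes moved more, and under limma DOX against Saline gave 6 genes, with 2 to 1474 over the other settings. K35 against DOX gave 1883 (1208 to 2589), K27 against DOX 2 (0 to 1097) and K35 against K27 70 (12 to 1689). The 2 added fits gave 0 genes in each of the first 3 of these comparisons. The split for K35 against DOX was 1527 higher and 356 lower, and 916 higher and 1427 lower with an equal sum without the 20 highest genes. For DOX against Saline it was 1 and 5, and 971 and 123 with that sum. For K35 against K27 it was 14 and 56, and 155 and 132 with median-ratio scaling. The median log2 difference of all genes, 0.46 for K35 against DOX, ranged from -0.087 to 0.24 over the scalings. Relative to it Tert stood at -1.44 to -1.38, Rad9b at -0.943 to -0.638, Recql5 at -0.927 to -0.898 and Apex1 at 1.16 to 1.2. Most of these scalings divide each library by 1 factor, so values relative to the median change little by construction. Repair and telomere genes called for K35 against DOX numbered 15, with 9 to 30 over the other settings, and 0 became 0 to 22 for DOX against Saline, 0 to 6 for K27 against DOX and 0 to 13 for K35 against K27. Count-based normalizations were not run, since no counts were used. Depth is unknown, and low levels such as Rad9b's near 1 FPKM limit the precision.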
